A study of Mus musculus with 36 samples.

Results

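The expression of 10 osteoclast genes was followed in the tibia of the mouse model of Hutchinson-Gilford progeria syndrome, in which a variant of *LMNA* makes children age early and which affects bone, skin and blood vessels. They were chosen by name: *Acp5*, *Ctsk*, *Car2*, *Itgb3*, *Dcstamp*, *Ocstamp*, *Oscar*, *Nfatc1*, *Calcr* and *Src*, which are 10 of the 56246 genes in the expression table. All 10 were found once each, and all 10 passed the filter on low values (a mean of at least 0.1 scaled TPM over the libraries), as did 22573 genes in all. RNA-seq libraries came from 36 mice of 6 months of age, 12 in each of 3 groups with 6 males and 6 females in each. Wild-type mice were not treated. The other 2 groups carried 2 copies of a human *LMNA* transgene (genotype LMNAG608G/G608G, written *LMNA* G/G) and were injected behind the eye on day 14 after birth with saline or with an adenine base editor (ABE) carried by AAV9, a viral vector that reaches many tissues. The transgene is a human bacterial artificial chromosome that also holds a second gene, *RAB25*, on a C57BL/6J background, so every transgenic mouse differed from wild-type mice by more than the variant. Saline-treated mice received no AAV9, so the vector and base editing cannot be told apart in comparisons of ABE with saline. Wild-type mice received no injection, so genotype and injection cannot be told apart in comparisons with wild-type. Their mouse numbers form a separate series, although the study calls the groups littermates, and whether the numbering marks a batch is not given. The ends of the tibia and its marrow had been taken out, and the study describes the remaining tissue as mostly cortical bone. Transcripts of marrow and muscle were still present. In wild-type mice the median summed level was 1540 scaled TPM for 10 neutrophil genes and 886 for 10 skeletal muscle genes. It was 1364 for 7 osteoblast genes and 22.4 for 6 osteocyte genes.

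Osteoclasts are multinucleated cells that dissolve bone. They form from monocyte precursors under M-CSF and RANKL, whose signal, together with costimulation through receptors such as OSCAR, switches on the transcription factor NFATc1. The precursors then fuse with the help of DC-STAMP and OC-STAMP, attach to bone through the αvβ3 integrin and the kinase Src, and secrete the collagen-cutting protease cathepsin K together with acid that carbonic anhydrase 2 helps to make, while the calcitonin receptor lets calcitonin halt them. Several of these proteins are not limited to osteoclasts. Integrin β3 and Src are also abundant in megakaryocytes and platelets, and carbonic anhydrase 2 in red blood cells. In bulk bone, fewer cells of a type and less RNA per cell cannot be told apart.

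Promoter sequence was available from RefSeq (GRCm38.p6) for 5 of the 10 genes, at 8 transcription starts. The 250 bases before the start are shown for the 3 genes with a single listed start. Of these, *Ctsk* and *Oscar* were higher and *Src* lower with saline than in the wild-type group. Capitals mark matches, on either strand, to the letters GGAAA (the core of NFAT sites) or GAGGAA (the core of PU.1 sites), and no match of one overlapped the other in these windows.
Ctsk, chr3:95498960-95499209, plus strand: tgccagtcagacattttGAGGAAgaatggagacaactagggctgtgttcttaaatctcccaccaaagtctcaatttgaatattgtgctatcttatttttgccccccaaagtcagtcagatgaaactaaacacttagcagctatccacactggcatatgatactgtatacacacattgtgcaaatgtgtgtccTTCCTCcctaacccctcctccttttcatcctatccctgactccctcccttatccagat
Oscar, chr7:3616158-3616407, minus strand: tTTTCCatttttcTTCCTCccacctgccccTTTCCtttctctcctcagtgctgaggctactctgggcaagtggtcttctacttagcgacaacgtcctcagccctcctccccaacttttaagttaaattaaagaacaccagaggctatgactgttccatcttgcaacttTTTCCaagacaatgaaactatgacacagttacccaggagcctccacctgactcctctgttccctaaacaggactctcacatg
Src, chr2:157424043-157424292, plus strand: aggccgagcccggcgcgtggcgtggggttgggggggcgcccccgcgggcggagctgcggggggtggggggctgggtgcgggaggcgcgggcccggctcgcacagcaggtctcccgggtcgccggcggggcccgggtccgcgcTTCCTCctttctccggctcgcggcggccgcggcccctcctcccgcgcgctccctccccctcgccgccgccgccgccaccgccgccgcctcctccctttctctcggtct
The *Ctsk* window held 2 matches to GAGGAA and none to GGAAA, the *Oscar* window 1 and 3, and the *Src* window 1 and none. Of the 32851 RefSeq windows of this length, 55.6% held GGAAA and 23.3% held GAGGAA, so both are frequent. The letters TGANTCA (AP-1) and CACGTG (bound by MITF) were in none of the 8 windows, against 6.75% and 6.02% of all windows. GC content was 43.2% before *Ctsk*, 47.2% before *Oscar* and 82.8% before *Src*. The listed *Src* start lies inside the gene as GENCODE bounds it, downstream of the annotated gene start at chr2:157418444. A match is a description of the letters, not of a bound site.

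Reads recovered from the table summed to between 48064068 and 116206662 per library. Levels are given as scaled TPM, that is, the deposited TPM (a read share per transcript length) divided by a median ratio size factor for each library, because genes of the minimum effective length, 1 bp, took 84.7% to 96.6% of the deposited TPM. The female ABE-treated mouse F109436 stood apart with a size factor of 0.217, against 0.606 for the next lowest library, and values without it are given beside the results. Defining markers of bone cells were present in each group: the osteocyte gene *Dmp1* averaged 11.7, 76.9 and 59.6 scaled TPM and the osteoblast gene *Bglap* 151, 173 and 179 in the wild-type, saline and ABE groups. Markers of blood and muscle were present too and are given beside the genes they moved with.

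In saline-treated *LMNA* G/G mice 7 of the 10 genes were higher than in wild-type mice, namely *Acp5*, *Ctsk*, *Dcstamp*, *Ocstamp*, *Oscar*, *Nfatc1* and *Calcr*, while *Itgb3* and *Src* were lower and *Car2* did not pass the test (limma over all genes, Benjamini-Hochberg adjusted p under 0.05). Over all genes tested, 25.3% were called higher and 24.7% lower, and the median log2 fold change was 0.0070 against 0.90 for the 10 genes. In ABE-treated compared with saline-treated mice 7 genes were lower (*Acp5*, *Ctsk*, *Car2*, *Itgb3*, *Dcstamp*, *Oscar* and *Src*) and 0 higher, against 21.6% and 21.5% of all genes. The median was -0.55 for the 10 genes and -0.0089 for all. By limma-voom the counts for the 10 genes were the same. So were they at an unadjusted p under 0.05, where 11448 of the 22573 genes passed in either direction. ABE-treated compared with wild-type mice had 6 of the 10 higher and 3 lower, against 32.9% and 33.9% of all genes, with medians of 0.50 and -0.020. *Calcr*, counted as higher in both comparisons with wild-type, passed the filter only through the transgenic groups. The comparisons share their libraries, so each gene's values are given side by side below. With the deposited TPM unscaled, the median of all genes moved to -0.16, -0.31 and -0.49 in the 3 comparisons, and with TPM rescaled without the genes of minimum effective length to -0.17, -0.020 and -0.21. These scalings called 1 of the 10 genes higher and 3 lower (9.3% and 55.3% of all genes), or 2 and 3 (21.6% and 46%), with ABE against wild-type. The changes below are relative to a median near 0.

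**Figure D1:**
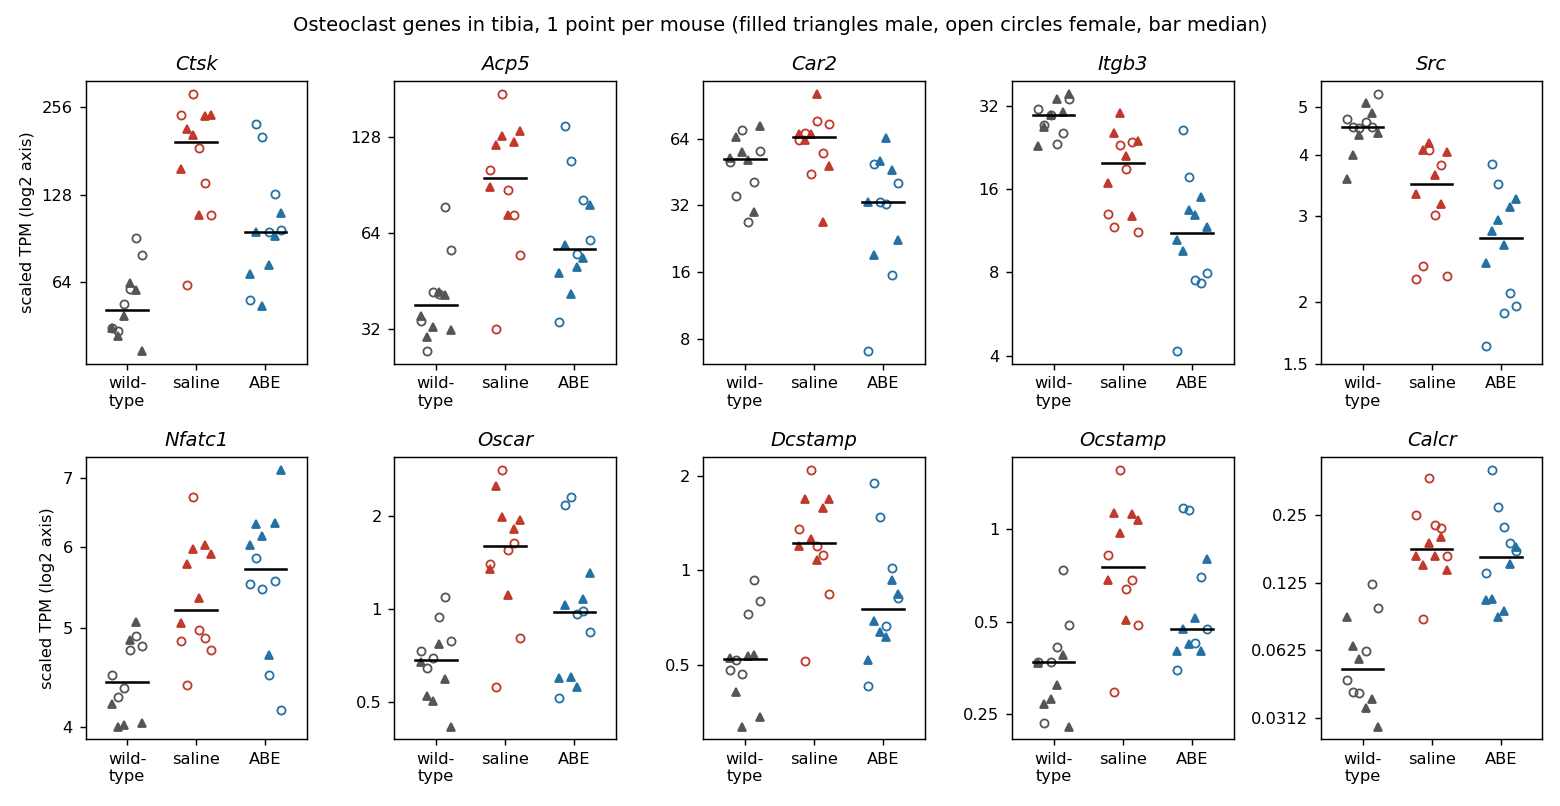
Scaled TPM (log2 axis) of the 10 genes in 36 tibiae, 12 per group, with 1 point per mouse (filled triangles male, open circles female) and a bar at the group median. *Ctsk* in saline-treated mice has a median of 195 against 51.3 in wild-type mice, while *Itgb3* steps down from 29.6 to 20.0 and 11.1 in the wild-type, saline and ABE groups.

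Resorption genes came first in level. *Ctsk* (ENSMUSG00000028111.4, chr3:95499256-95509362, plus strand, GRCm38) encodes cathepsin K, the protease that cuts bone collagen. Its lowest, median and highest scaled TPM were 37.1, 51.3 and 90.5 in wild-type, 62.5, 195 and 284 in saline-treated and 53.0, 95.03 and 224 in ABE-treated mice. Of the 12 saline-treated mice 11 lay above the highest wild-type mouse, and 8 of 12 ABE-treated mice did so too. The mean was 3.27 times that of wild-type mice with saline, which on the log2 scale was 1.65 ± 0.23 (SE, adjusted p = 4.62e-07). ABE-treated mice were lower than saline-treated mice by -0.79 ± 0.23 (adjusted p = 0.0071) and higher than wild-type mice by 0.86 ± 0.23 (adjusted p = 0.0013). *Ctsk* thus lay between the other groups in ABE-treated mice, with a mean 0.592 times that of saline-treated mice. Without F109436 the difference from saline was -0.70 (adjusted p = 0.017).

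*Acp5* (ENSMUSG00000001348.15, chr9:22126727-22135711, minus strand) encodes tartrate-resistant acid phosphatase, the classic histochemical stain of osteoclasts. It ran from 27.3 through a median of 38.0 to 77.2 scaled TPM in wild-type mice, from 32.0 through 94.9 to 174 with saline and from 33.7 through 57.0 to 138 with ABE. All groups overlapped, with 8 of 12 saline-treated mice above the highest wild-type mouse and none of the 12 ABE-treated mice below the lowest saline-treated mouse. The log2 fold change was 1.21 ± 0.23 with saline over wild-type (adjusted p = 4.65e-05) and 0.66 ± 0.23 with ABE over wild-type (adjusted p = 0.011). The change from saline to ABE, -0.55 ± 0.23, sat at the threshold (adjusted p = 0.049), and leaving out any 1 of 28 of the 36 libraries ended the call, with an adjusted p of 0.103 without F109436.

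*Car2* (ENSMUSG00000027562.12, chr3:14886273-14900770, plus strand) encodes carbonic anhydrase 2, which makes the protons that osteoclasts pump onto bone. Its range was 27.0 to 73.2 scaled TPM in wild-type mice with a median of 51.8, 26.8 to 102 with saline with a median of 65.4, and 7.06 to 64.3 with ABE with a median of 33.2. None of the 12 ABE-treated mice reached the saline median, and the lowest value belonged to F109436. Saline-treated and wild-type mice were not told apart, with a log2 difference of 0.32 and a 95% interval of -0.21 to 0.84 (adjusted p = 0.32). With ABE *Car2* changed by -1.01 ± 0.26 against saline (adjusted p = 0.0030) and by -0.70 ± 0.26 against wild-type (adjusted p = 0.018). Without F109436 the log2 fold change against saline was -0.83 (adjusted p = 0.0054).

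Unlike *Ctsk* and *Acp5*, the adhesion genes *Itgb3* and *Src* were lower with saline than in wild-type mice. *Itgb3* (ENSMUSG00000020689.4, chr11:104608000-104670476, plus strand) encodes integrin β3, which pairs with αv to hold the osteoclast to bone and with αIIb on platelets. It ran from 22.9 through a median of 29.6 to 35.3 scaled TPM in wild-type mice, from 11.2 through 20.0 to 30.2 with saline and from 4.17 through 11.1 to 26.1 with ABE. Of the ABE-treated mice 11 of 12, and of the saline-treated mice 7 of 12, lay below the lowest wild-type mouse. The log2 fold change was -0.65 ± 0.20 with saline against wild-type (adjusted p = 0.0064), -0.76 ± 0.20 with ABE against saline (adjusted p = 0.0034) and -1.41 ± 0.20 with ABE against wild-type (adjusted p = 2.32e-07). *Itgb3* was therefore farther from wild-type with ABE than with saline. Without F109436, its lowest library, it differed by -0.64 from saline (adjusted p = 0.0075) and by -1.29 from wild-type (adjusted p = 2.76e-07).

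*Src* (ENSMUSG00000027646.15, chr2:157418444-157471862, plus strand), the kinase that acts downstream of that integrin in forming the ruffled border, followed the same order at a lower level. Its range was 3.58 to 5.33 scaled TPM in wild-type mice with a median of 4.56, 2.23 to 4.24 with saline with a median of 3.48, and 1.63 to 3.83 with ABE with a median of 2.71. No saline-treated mouse reached the wild-type median, and 11 of 12 ABE-treated mice lay below the lowest wild-type mouse. The log2 fold change was -0.46 ± 0.12 with saline against wild-type (adjusted p = 0.0017) and -0.79 ± 0.12 with ABE against wild-type (adjusted p = 7.61e-07). Between ABE and saline it was -0.33 ± 0.12 (adjusted p = 0.025), a call lost without F109436 (adjusted p = 0.0576) and without the saline-treated female F209536 (adjusted p = 0.0507).

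Genes of cell fusion and costimulation were expressed at low levels, and all 3 were higher with saline than in wild-type mice. *Dcstamp* (ENSMUSG00000022303.9, chr15:39745930-39760938, plus strand), the membrane protein that precursors need in order to fuse, ran from 0.317 through a median of 0.522 to 0.931 scaled TPM in wild-type mice, from 0.512 through 1.23 to 2.10 with saline and from 0.428 through 0.752 to 1.90 with ABE. Of the 12 saline-treated mice 10 lay above the highest wild-type mouse. These levels rest on 193 to 1568 reads per library. The log2 fold change was 1.10 ± 0.19 with saline over wild-type (adjusted p = 1.71e-05), -0.56 ± 0.19 with ABE against saline (adjusted p = 0.019) and 0.54 ± 0.19 with ABE over wild-type (adjusted p = 0.014). Without F109436 the change from saline to ABE was -0.47 (adjusted p = 0.045).

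*Ocstamp* (ENSMUSG00000027670.4, chr2:165393760-165400405, minus strand), its partner in fusion, ran from 0.228 through a median of 0.368 to 0.737 scaled TPM in wild-type mice, from 0.295 through 0.753 to 1.56 with saline and from 0.347 through 0.472 to 1.17 with ABE. Saline-treated mice were higher than wild-type mice by 0.93 ± 0.20 on the log2 scale (adjusted p = 0.00027), with 6 of 12 above the highest wild-type mouse. The ABE-treated and saline-treated groups were not told apart, with a difference of -0.39 and a 95% interval of -0.80 to 0.018 (adjusted p = 0.11), and the call appeared without the saline-treated female F109466 (-0.50, adjusted p = 0.0301) or the ABE-treated female F1WT609535 (-0.47, adjusted p = 0.0465). ABE-treated mice were above wild-type mice by 0.54 ± 0.20 (adjusted p = 0.018). Without F109436 these 2 values were -0.33 (adjusted p = 0.20) and 0.60 (adjusted p = 0.010).

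*Oscar* (ENSMUSG00000054594.13, chr7:3609813-3616157, minus strand), the collagen-binding costimulatory receptor, ran from 0.417 through a median of 0.685 to 1.10 scaled TPM in wild-type mice, from 0.562 through 1.60 to 2.84 with saline and from 0.516 through 0.980 to 2.31 with ABE. Saline-treated mice exceeded wild-type mice by 1.04 ± 0.22 on the log2 scale (adjusted p = 0.00023), and 10 of 12 lay above the highest wild-type mouse. The change from saline to ABE was -0.58 ± 0.22 (adjusted p = 0.033). Leaving out any 1 of 8 mice ended that call (F109436, M109455, M309457 and M409458 with ABE, and F209536, M109440, M1WT509424 and M409446 with saline), with an adjusted p of up to 0.0715. Against wild-type the ABE-treated value of 0.46 ± 0.22 did not pass (adjusted p = 0.068), but it did without any 1 of 6 mice, F109436 among them (0.54, adjusted p = 0.0312).

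*Nfatc1* (ENSMUSG00000033016.16, chromosome 18), the master transcription factor of osteoclast formation, varied least within groups, with a coefficient of variation of 8.54%, 12.6% and 15.2% in the wild-type, saline and ABE groups. Its range was 4.004 to 5.06 scaled TPM in wild-type mice with a median of 4.43, 4.40 to 6.72 with saline with a median of 5.20, and 4.15 to 7.14 with ABE with a median of 5.70. It was higher by 0.25 ± 0.071 with saline (adjusted p = 0.0033) and by 0.31 ± 0.071 with ABE (adjusted p = 0.00023) than in wild-type mice, on the log2 scale. The difference between ABE and saline was 0.059, with a 95% interval of -0.085 to 0.20 (adjusted p = 0.52). In the unscaled TPM this difference and that between ABE and wild-type mice changed sign, to -0.32 and -0.255, without passing the test. In scaled TPM without F109436 they were 0.055 and 0.31.

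*Calcr* (ENSMUSG00000023964.15, chr6:3685680-3764714, minus strand), the calcitonin receptor of the mature osteoclast, was the scarcest of the 10. It ran from 0.0286 through a median of 0.0515 to 0.123 scaled TPM in wild-type mice, from 0.0858 through 0.177 to 0.365 with saline and from 0.0878 through 0.162 to 0.398 with ABE, on 31 to 412 reads per library. Of the saline-treated mice 11 of 12, and of the ABE-treated mice 8 of 12, lay above the highest wild-type mouse. Group means were 3.22 and 2.94 times that of wild-type mice. The log2 fold changes of 0.86 ± 0.12 with saline (adjusted p = 7.16e-07) and 0.75 ± 0.12 with ABE (adjusted p = 2.90e-06) understate these ratios, because 0.1 was added to each value before taking logs, and with 0.02 added they were 1.43 and 1.26. The wild-type mean of *Calcr*, 0.060 scaled TPM, lay below the filter of 0.1. *Calcr* passed only through its means of 0.19 with saline and 0.18 with ABE. The filter thus selected in part on the difference tested, and the calls against wild-type are to be read with that limit. ABE and saline differed by -0.11, with a 95% interval of -0.36 to 0.14 (adjusted p = 0.48), and this value turned positive in females alone (0.071) and with a skeletal muscle, megakaryocyte or macrophage covariate. Without F109436 it was -0.084, and the change from wild-type to ABE 0.78.

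**Figure D2:**
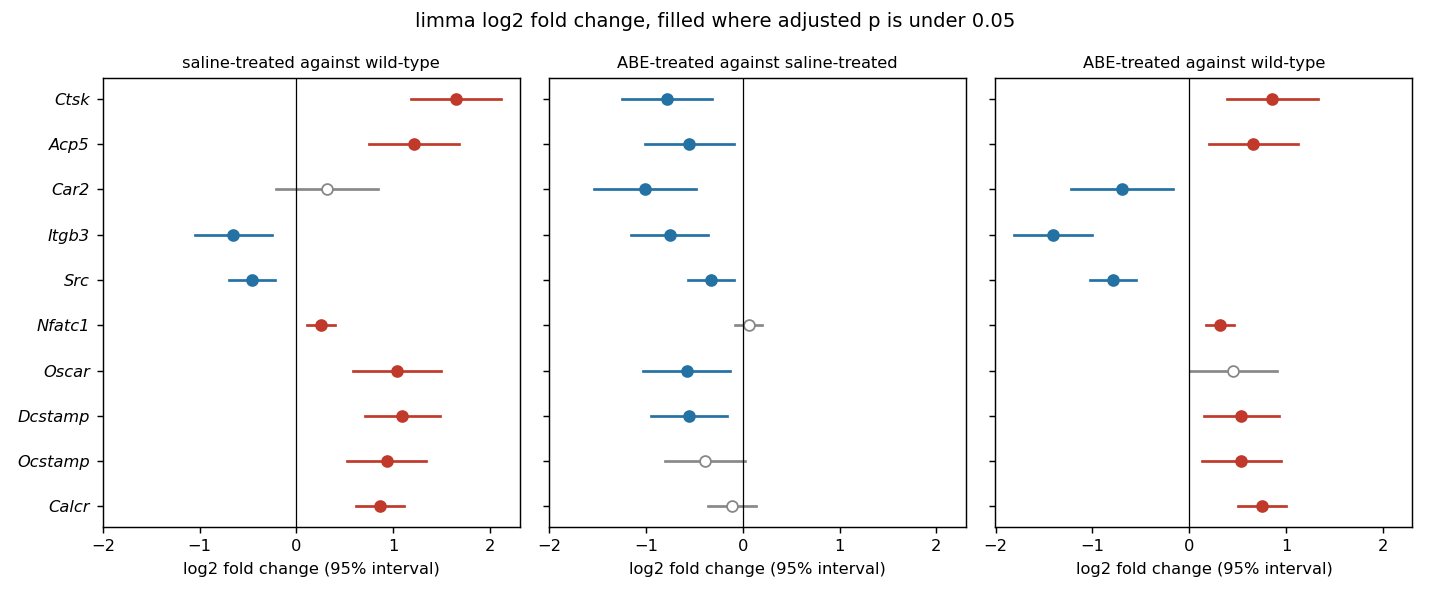
Log2 fold change of each gene with its 95% interval in the 3 comparisons of groups (limma, 12 mice per group), with filled points where the adjusted p is under 0.05 (red higher, blue lower) and open points where it is not. With ABE against saline 7 of 10 genes lie below 0 and pass, and *Itgb3*, *Src* and *Car2* lie below 0 with ABE against wild-type, where the other 7 lie above it.

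In order of level per length, *Ctsk*, *Car2* and *Acp5* led in wild-type mice, and neighbours among them did not differ beyond their spread (exact sign-flip permutation tests over 12 mice, adjusted over 27 neighbours, adjusted p = 0.48 and 0.16). *Src* and *Nfatc1* were likewise level with each other (means of 4.56 and 4.48 scaled TPM, 7 of 12 mice higher in *Src*, exact adjusted p = 0.50). *Itgb3* stood between them and *Acp5*, followed at the low end by *Oscar*, *Dcstamp*, *Ocstamp* and *Calcr*, each above the next. In saline-treated mice *Ctsk* was above *Acp5* in 12 of 12 mice by 0.89 ± 0.19 (SD) on the log2 scale, while *Acp5* and *Car2* were not separated (exact permutation adjusted p = 0.074). *Nfatc1* exceeded *Src* in 12 of 12 saline-treated mice and in 12 of 12 ABE-treated mice. In ABE-treated mice every neighbour in the order differed, with an exact permutation adjusted p of at most 0.0097.

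Within groups the genes varied together. After removing the mean of each group and sex, *Acp5*, *Ctsk*, *Dcstamp*, *Ocstamp* and *Oscar* correlated with r from 0.87 to 0.96 in all 10 pairs (36 libraries, Spearman's rho 0.80 to 0.97, permutation adjusted p = 3e-05, the smallest these permutations gave). With the 2 libraries farthest from the median left out, r was 0.83 to 0.96. *Calcr* correlated with these 5 at 0.78 to 0.82 and *Nfatc1* at 0.59 to 0.65. The same mice were extreme for several genes at once: in saline-treated mice the female F209536 was highest and the female F109466 lowest for *Acp5*, *Ctsk*, *Dcstamp*, *Ocstamp*, *Oscar*, *Nfatc1* and *Calcr*, and in wild-type mice the female 611F was highest for *Acp5*, *Ctsk*, *Dcstamp*, *Ocstamp*, *Oscar* and *Calcr*. All values of a library share 1 size factor.

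*Car2* did not join this group, with r from -0.074 to 0.060 against the 5 genes (permutation adjusted p of 0.80 or more), and it correlated negatively with *Nfatc1* (r = -0.50, rho = -0.49, permutation adjusted p = 0.0068, r = -0.51 without the 2 farthest libraries). *Itgb3* and *Src* formed a pair of their own (r = 0.92, rho = 0.88, permutation adjusted p = 3e-05, r = 0.88 without the 2 farthest). Each correlated less closely with the 5 genes, at 0.53 to 0.77. Without F109436 *Car2* correlated with the 5 genes at -0.24 to -0.33, again without passing, *Itgb3* with *Src* at 0.91 and *Car2* with *Nfatc1* at -0.52. Of the 45 pairs 37 passed by Pearson's r and 36 by Spearman's rho.

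**Figure D3:**
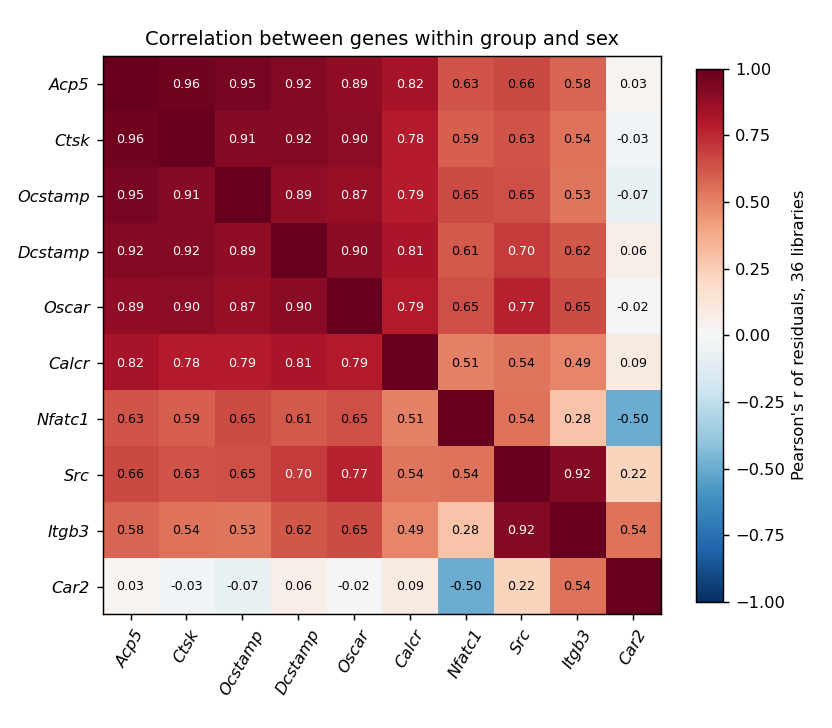
Pearson's r between the 10 genes after subtracting the mean of each group and sex, over 36 libraries (red positive, blue negative). *Acp5*, *Ctsk*, *Ocstamp*, *Dcstamp* and *Oscar* form a block of 0.87 to 0.96, *Itgb3* and *Src* correlate at 0.92, and *Car2* stands apart with -0.50 against *Nfatc1*.

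Markers of other cells moved with *Itgb3*, *Src*, *Car2* and *Nfatc1*, each of which correlated with at least 1 of 4 marker lists by both measures. *Itgb3* followed the mean log2 level of 8 megakaryocyte genes with r = 0.94 (rho = 0.92, permutation adjusted p = 0.0002, r = 0.90 without the 2 farthest libraries), and *Src* with r = 0.80 (rho = 0.73, permutation adjusted p = 0.00027, r = 0.70). *Car2* followed 8 erythroid genes with r = 0.96 (rho = 0.92, permutation adjusted p = 0.0002, r = 0.95). *Itgb3* also followed 10 monocyte and macrophage genes (r = 0.78, rho = 0.64, permutation adjusted p = 0.0007 for r, r = 0.63 without the 2 farthest), as *Car2* did (r = 0.69, rho = 0.53, permutation adjusted p = 0.0028, r = 0.49), and *Car2* the megakaryocyte list (r = 0.70, rho = 0.59, permutation adjusted p = 0.00093, r = 0.52). For *Acp5*, *Ctsk*, *Dcstamp*, *Ocstamp*, *Oscar* and *Calcr* no correlation with the megakaryocyte, erythroid or muscle list passed among the 40 tested (10 genes by 4 lists), and with the monocyte and macrophage list *Acp5* (r = 0.48, rho = 0.34) and *Dcstamp* (r = 0.51, rho = 0.32) passed by Pearson's r (permutation adjusted p = 0.037 for each) but not by Spearman's rho. *Nfatc1* correlated with the erythroid list at -0.50 (rho = -0.51, permutation adjusted p = 0.017 and 0.018, r = -0.45 without the 2 farthest). The muscle list went against *Itgb3* (r = -0.67, rho = -0.66), *Car2* (r = -0.53, rho = -0.53) and *Src* (r = -0.52, rho = -0.49), with permutation adjusted p of 0.0008, 0.0113 and 0.0359 for r. *Itgb3* with the erythroid list (r = 0.55) and *Src* with the monocyte and macrophage list (r = 0.59) passed by r (permutation adjusted p = 0.0394 and 0.0151) but not by rho. Without F109436 r was 0.92 for *Itgb3* and 0.77 for *Src* with the megakaryocyte list, 0.95 for *Car2* with the erythroid list and 0.57 with the megakaryocyte list, and 0.70 for *Itgb3* with the monocyte and macrophage list. *Acp5* and *Dcstamp* with the monocyte and macrophage list, *Itgb3* with the erythroid list, and *Src* with the monocyte and macrophage and the muscle lists then no longer passed, and *Car2* with the monocyte and macrophage list and *Nfatc1* with the erythroid list passed by r but not by rho.

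**Figure D4:**
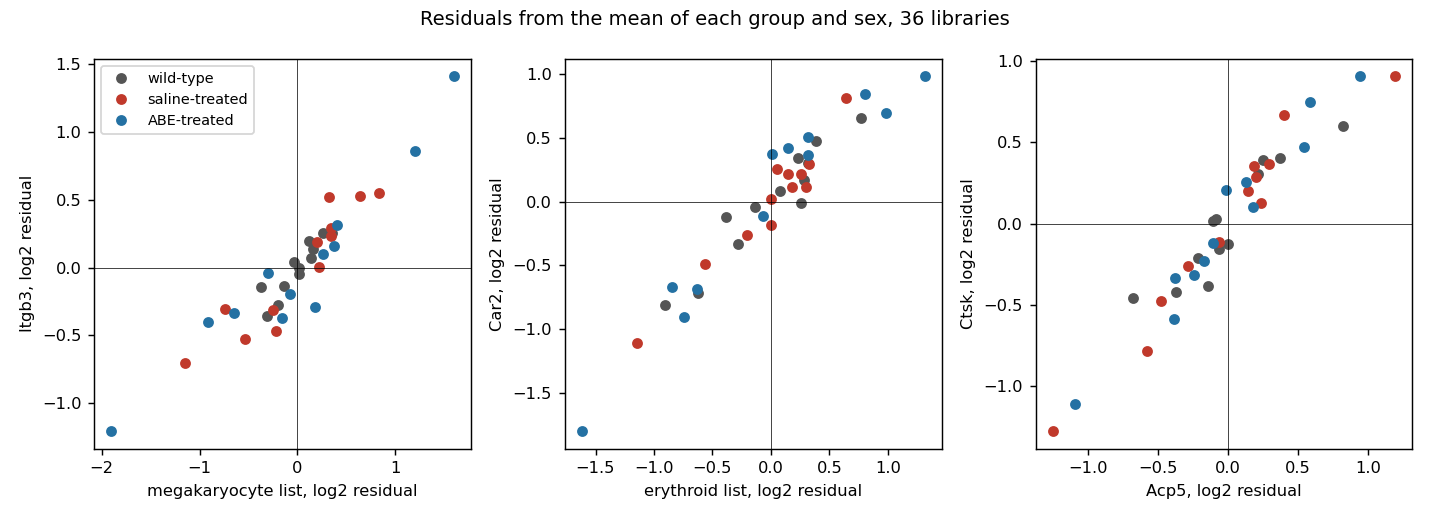
Residuals on the log2 scale from the mean of each group and sex, 36 libraries coloured by group: *Itgb3* against the mean of 8 megakaryocyte genes (r = 0.94), *Car2* against the mean of 8 erythroid genes (r = 0.96) and *Ctsk* against *Acp5* (r = 0.96). In each panel points of all 3 groups follow the diagonal trend.

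The levels of those markers differed between the groups. Of the megakaryocyte list 7 of 8 genes were tested, and all 7 were lower in each of the 3 comparisons (median log2 fold changes of -0.94, -1.01 and -2.03), with summed levels of 121 to 253 scaled TPM in wild-type, 39.0 to 185 in saline-treated and 5.55 to 125 in ABE-treated mice. Its defining gene *Itga2b*, the αIIb partner of integrin β3, averaged 19.0, 8.06 and 4.43 scaled TPM. With the mean level of this list as a covariate, a setting added after the data were seen, *Itgb3* differed by -0.0020 (adjusted p = 0.99) and *Src* by -0.13 (adjusted p = 0.24) between saline-treated and wild-type mice, and by -0.13 and -0.15 between ABE-treated and wild-type mice, whereas the 7 genes called higher with saline were all called, with *Ctsk* at 1.90, and *Car2* joined them at 0.93 (adjusted p = 0.00125). In that fit 19.8% of all genes were called higher and 19.6% lower. Such a covariate also takes out whatever difference between groups the markers share with bone itself.

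Of the 8 erythroid genes none was called between saline-treated and wild-type mice (1 lower at an unadjusted p under 0.05, none by limma-voom), and 7 were lower with ABE against saline and 7 with ABE against wild-type (6 and 5 without F109436), as *Car2* was. Their summed levels were 128 to 360, 106 to 366 and 25.1 to 266 scaled TPM in the wild-type, saline and ABE groups, and the defining gene *Alas2* averaged 62.8, 76.9 and 38.9. With neutrophil, B cell and erythroid covariates the *Car2* difference between ABE and saline was -0.057 (adjusted p = 0.77). Of 10 monocyte and macrophage genes 1 was higher (*Cd68*, 0.96) and 1 lower (*Ccr2*, -0.42) with saline against wild-type, and 8 were lower with ABE against saline (6 without F109436). Their summed levels were 168 to 353, 138 to 376 and 64.8 to 351 scaled TPM, with *Adgre1* at 3.42, 3.32 and 2.16.

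Of 10 skeletal muscle genes 8 were higher with saline against wild-type, 8 with ABE against saline and 10 with ABE against wild-type, of which the 8 with ABE against saline were 5 without F109436, and their summed levels ranged from 178 to 2663, 285.2 to 7035 and 914 to 11074 scaled TPM, with *Acta1* averaging 313, 831 and 1754. The 7 falls from saline to ABE were seen in the same mice as these changes in blood and muscle markers. With a skeletal muscle, a megakaryocyte or a macrophage covariate 0 of the 10 genes passed between ABE and saline. The log2 fold changes of *Ctsk* were then -0.70, -0.54 and -0.39, and 11.2%, 2.46% and 0.12% of all genes passed in either direction. With neutrophil, B cell and erythroid covariates *Ctsk* alone of the 10 passed (-1.02, limma adjusted p = 0.0269), against 7.79% of all genes. Each covariate also takes out change that its markers share with the 10 genes. *Cd68*, on the macrophage list, itself varied with the 10 genes, with a mean Pearson's r of residuals of 0.69. The part of blood and muscle in the falls was not tested beyond these fits. The rise of *Ctsk* from wild-type to saline passed under every one of these covariates, at 1.62 to 1.90.

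The other marker lists were as follows. Of 10 neutrophil genes 3 were higher with saline against wild-type and 8 lower with ABE against saline, with *Ngp* at 365, 472 and 323 scaled TPM in the wild-type, saline and ABE groups. Of 7 B cell genes 6 were lower with saline and 6 with ABE than in wild-type mice. Osteocyte genes were called higher for 5 of 6 with saline and 6 of 6 with ABE, osteoblast genes for 3 of 7 in both, and endothelial genes for 3 of 6 and 6 of 6. The median log2 fold change of the osteocyte genes against wild-type was 2.31 with saline and 2.05 with ABE. *Mepe* rose most among them, by 4.91 and 4.23. Of 4 satellite cell genes only *Myod1* was tested, and *Pax7* averaged 0.019 to 0.094 scaled TPM. Without F109436 the neutrophil counts were 5 and 3. No fit was made with the osteocyte, osteoblast, endothelial or satellite cell lists as covariates, and their part in the results was not tested.

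Partners of the 10 genes, from lists of osteoclast biology, moved in both directions. Of 12 genes of acid secretion and matrix degradation 7 were higher and 2 lower with saline against wild-type (median 0.41), led by *Atp6v0d2*, a subunit of the proton pump, at 1.496 ± 0.19 (adjusted p = 7.89e-08), and with *Tcirg1*, another pump subunit, lower at -0.28. With ABE against saline 7 were lower (9 at an unadjusted p under 0.05, 7 by limma-voom, 6 without F109436) and 0 higher in each of these (median -0.21), the largest fall being that of the gelatinase *Mmp9* at -0.64 (adjusted p = 0.0035). With ABE against wild-type 5 were higher and 4 lower.

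Of 21 genes of osteoclast receptors and signalling 6 were higher and 9 lower with saline against wild-type (median 0.048). The largest rise was in *Fos*, a component of AP-1, at 1.99, and the largest fall in the kinase *Syk* at -0.74. In ABE-treated mice 13 were lower than with saline (median -0.33), most of all the adaptor *Tyrobp* at -0.68, and 1 higher, the transcription factor *Mitf* at 0.37. Without F109436 10 were lower. With ABE against wild-type 3 were higher and 12 lower, with *Fos* at 1.99 and the kinase *Btk* at -1.14. All 4 genes on the list of growth signals were higher with saline than in wild-type mice. The largest rise, 1.53, was that of *Tnfrsf11b*, the RANKL decoy osteoprotegerin, which is not itself a growth signal. *Tnfsf11*, which encodes RANKL, rose by 1.05. Of the 4 genes *Tnfsf11* was lower with ABE than with saline (-0.61) and the other 3 were not called.

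Among 8 cell fusion partners 3 were higher with saline against wild-type, led by the sialic acid receptor *Siglec15* at 0.90, and with ABE against saline 4 were lower (3 without F109436, most of all *Adam8* at -0.69) and 2 higher (*Tspan7* at 0.52). Among 12 genes of adhesion and the sealing zone 5 were lower and 2 higher with saline against wild-type, with *Gsn*, an actin-severing protein, at -0.58 and *Itgav*, the αv partner of integrin β3, at 0.79. *Itgav* and *Itgb3* were thus called in opposite directions in the same libraries. With ABE against saline 6 of the 12 were lower (5 without F109436), led by the integrin activator *Fermt3* at -0.85, and 2 higher, led by *Gsn* at 0.55. Of 4 repressors of osteoclast formation *Irf8* was lower (-1.21) and *Id2* higher (0.36) with saline against wild-type, and with ABE against saline *Bcl6* was higher (0.49) and *Id2* lower (-0.33). Of 3 RAMP proteins that partner the calcitonin receptor none was called with saline against wild-type (none at an unadjusted p under 0.05 or by limma-voom either), and *Ramp1* and *Ramp2* were higher with ABE against saline (0.56 and 0.41).

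The 5 other genes whose residuals followed the 10 genes most closely, by mean Pearson's r over 36 libraries among genes of at least 0.5 scaled TPM and over 300 bp, were *Mmp9* (mean r = 0.76), *Slc37a2* (0.76), *Rufy4* (0.76), *Arsb* (0.75) and *Gm20056* (0.75). *Slc37a2* encodes a sugar phosphate transporter family member, *Arsb* a lysosomal sulfatase, and *Mmp9* alone of the 5 was on a list. Their lowest r with any of the 10 was 0.036 to 0.24, and their highest 0.92 to 0.97. All 5 were higher with saline than in wild-type mice (0.60 to 0.76) and lower with ABE than with saline (-0.39 to -0.64), and the difference from wild-type with ABE did not pass for any of the 5 (adjusted p of 0.14 to 0.56).

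Males and females were compared within each change. With saline against wild-type the log2 fold change was 1.63 ± 0.31 in males and 0.80 ± 0.31 (SE, 6 mice per group and sex) in females for *Acp5*, 1.48 ± 0.26 and 0.71 ± 0.26 for *Dcstamp*, 1.45 ± 0.30 and 0.63 ± 0.30 for *Oscar*, and 0.83 ± 0.17 and 0.89 ± 0.17 for *Calcr*. With ABE against saline it was -1.02 ± 0.31 and -0.086 ± 0.31 for *Acp5*, -1.23 ± 0.31 and -0.34 ± 0.31 for *Ctsk*, -0.92 ± 0.26 and -0.19 ± 0.26 for *Dcstamp*, and -0.69 ± 0.37 and -1.33 ± 0.37 for *Car2*. The estimates for the genes of the *Acp5* group were larger in males in both changes, but the difference between the sexes itself did not pass for any of the 10 genes. The smallest adjusted p was 0.21 (*Dcstamp*) with saline and 0.32 (*Acp5*) with ABE (limma interaction term).

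At an unadjusted p under 0.05 the sexes differed for 2 genes with saline (*Dcstamp* and *Src*) and 1 with ABE (*Acp5*). At that threshold 4941 and 3258 of all 22573 genes did so. By limma-voom 0 of the 10 were called in either. At an adjusted p under 0.05, 1.07% of all genes passed for saline against wild-type and 0.0576% for ABE against saline. With neutrophil, B cell and erythroid covariates 5 genes passed in the saline change, *Acp5*, *Dcstamp*, *Oscar*, *Nfatc1* and *Src*, each with a higher log2 fold change in males (adjusted p of 0.024 to 0.044), against 4.39% of all genes. In males alone 8 of the 10 genes passed with saline against wild-type and 7 with ABE against saline, against 51.6% and 19% of all genes in either direction. In females alone 3 and 1 did, against 20.9% and 24.8%.

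**Figure D5:**
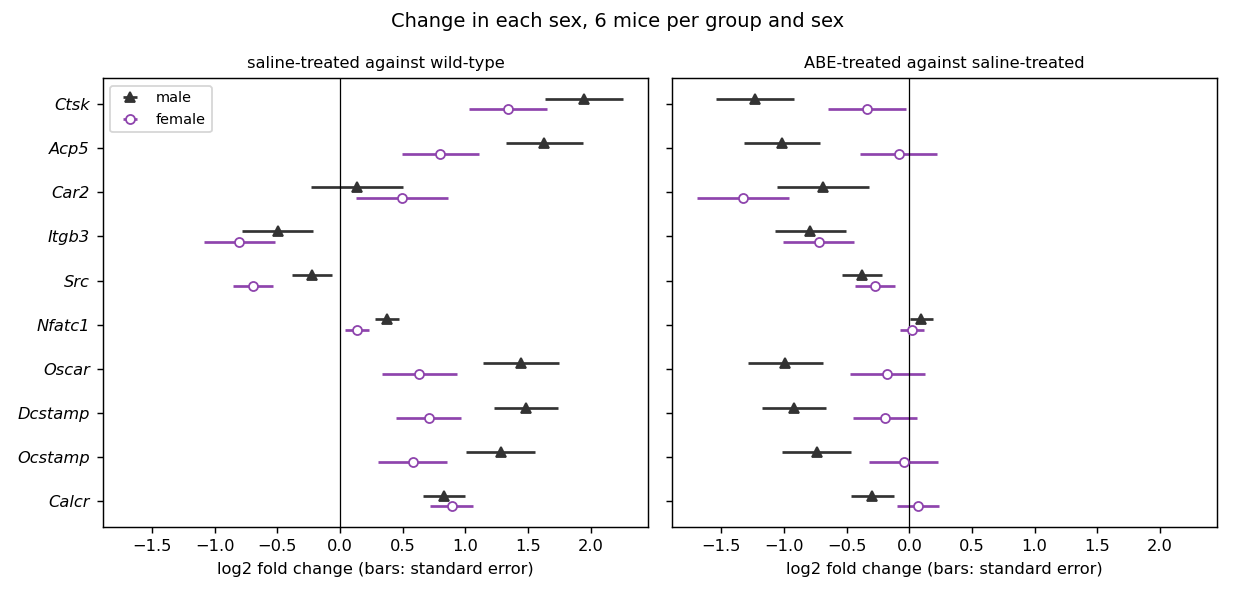
Log2 fold change in males (triangles) and females (open circles) with its standard error, 6 mice per group and sex, for saline against wild-type and for ABE against saline. *Acp5* with ABE against saline is at -1.02 in males and -0.086 in females, and none of the differences between the sexes passed the test over all genes.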

How the data were processed

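RNA from the tibiae of 36 mice, without their ends and marrow, was sequenced by the study as strand-specific poly(A) libraries. Reads were aligned with STAR (version 2.73a in the submitters' processing notes) to GRCm38 and quantified by QoRTs over GENCODE genes. The deposited values are TPM per gene, and how the authors calculated them is not given in the sources used here. TPM times the effective length (gene length less 218 bp, at least 1 bp) came out as whole multiples of 1 value per library for 100% of values (tolerance 0.01 reads), which gave the reads and depth.

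TPM were divided by median ratio size factors over the 23632 genes above 0 in every library. Log2(scaled TPM + 0.1) was fitted with limma 3.58.1 (R 4.3.3) over 22573 genes with a mean of at least 0.1, with group and sex as terms and Benjamini-Hochberg adjustment over all genes at 0.05. Gene coordinates are those of GENCODE on GRCm38. Pair correlations used 100000 permutations within group and sex. The fit was tested on simulated data. The 10 genes and all lists (osteoclast partners and markers of other cells) were chosen with earlier results of these data known. Named genes were the 10, the largest rise and fall called in each list, and the 5 genes most like the 10, beside defining markers of other cell types. *Ramp2* and *Myod1* were named after their values were seen. Correlations and exact tests used Python 3.11.15 and scipy 1.17.1. Alternatives changed the scaling, the amount added before taking logs, the filter, the sexes and libraries included, the covariates, or used limma-voom on the recovered reads.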

Additional observations from a re-analysis of the deposited data

How the results depend on the processing

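The 9 calls between saline-treated and wild-type mice were made again without any 1 of the 36 libraries, where 10533 to 11913 of all 22573 genes passed. Of 18 other settings 13 left the count between ABE and saline within 1.5 times of 7. For all genes 12 of the 18 left that count within 1.5 times of 9724. With the deposited TPM 6372 genes were called between saline-treated and wild-type mice (1456 higher, 4916 lower), 4 of the 10 genes were called between ABE-treated and wild-type mice, and *Nfatc1* turned to -0.32 (ABE against saline) and -0.255 (ABE against wild-type) and *Oscar* to -0.027 (ABE against wild-type). With TPM rescaled without the genes of minimum effective length that count was 5. In males alone 4300 genes were called between ABE and saline. In females alone 4718 genes and 3 of the 10 were called between saline-treated and wild-type mice, 5594 genes and 1 of the 10 between ABE and saline, with *Calcr* at 0.071, and 4 of the 10 between ABE-treated and wild-type mice. In that last comparison the count over all genes stayed within 1.5 times of the 15077 of the main fit. A skeletal muscle covariate left 2529 genes and 0 of the 10 between ABE and saline, with *Calcr* at 0.0069, and 7528 genes between ABE-treated and wild-type mice, with *Car2* at 0.054. Neutrophil, B cell and erythroid covariates left 5893 genes between saline-treated and wild-type mice, 1758 genes and 1 of the 10 between ABE and saline, with *Nfatc1* at -0.092, and 9309 genes and 3 of the 10 between ABE-treated and wild-type mice, with *Car2* at 0.22, and gave 5 of the 10 for the sex difference in the saline change.

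After the data had been seen, a megakaryocyte covariate was added, which left 555 genes and 0 of the 10 between ABE and saline, with *Calcr* at 0.00069, and 5080 genes between ABE-treated and wild-type mice, with *Car2* at 0.51. A monocyte and macrophage covariate added in the same way left 27 genes and 0 of the 10 between ABE and saline, with *Calcr* at 0.095, and *Car2* at 0.0034 between ABE-treated and wild-type mice. The cause of these changes was not tested. Leaving out 1 library gave 4 to 8 of the 10 between ABE and saline, with 4 (*Ctsk*, *Car2*, *Itgb3* and *Dcstamp*) without the ABE-treated female F109436 or without the saline-treated female F209536. Of all 22573 genes 8377 to 10895 passed in these fits in either direction. No paired analysis was possible because replicate numbers follow only the order of deposit. Among the 45 pair correlations 39, 37 and 35 passed with deposited TPM, with 0.5 added before taking logs and without F109436, settings also added later, as were the list counts and correlations without F109436. Depth limited *Calcr* most, with as few as 31 reads in a library.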
